A study of Homo sapiens with 14 samples.

Results

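The earliest response to TAp73β was measured in Hep3B cells, a line from a human hepatocellular carcinoma that lacks p53, after 12 h of induction. TAp73β is a transcriptionally active isoform of p73, a member of the p53 family. Proteins of this family bind as tetramers to a DNA element made of a pair of half-sites and switch on genes of cell cycle arrest, DNA repair and cell death, and p73 also acts in epithelial differentiation. In the inducible system used here, a tetracycline repressor holds the introduced TAp73β construct silent until doxycycline is added. The members are the 4 arrays labelled with the time point 12 h, of 14 in the series, where 4 further arrays cover 24 h and 6 cover 48 h.

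The treated group (Dox+) was the inducible Hep3B line given 1 µg/mL doxycycline for 12 h, with 2 arrays, and the control group (Dox−) was the same line left untreated for 12 h, also with 2 arrays. Both groups therefore carry the construct and the repressor, and both lack p53. The line came from colonies selected for drug resistance, and the number of colonies is not stated in the sources used here. Cells without the construct were not treated among these samples, so doxycycline itself and TAp73β cannot be told apart. The replicates are labelled as biological.

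RNA was measured on Affymetrix U133 Plus 2.0 arrays, in which several short probes form a probe set for a transcript. The values are log2 brightness after robust multi-array averaging (RMA), and a difference of 1 on this scale is a 2-fold change. Each gene was read from 1 probe set, which left 19775 genes. The value of a probe set does not measure the amount of one gene against another, so each gene is compared only with itself. The Pearson correlation over genes was 0.993 between the Dox− arrays, 0.994 between the Dox+ arrays, and 0.988 to 0.992 across the groups. The mean spread between replicates was wider at 12 h (root mean variance 0.209 in Dox− and 0.196 in Dox+) than at 48 h (0.105 and 0.111). The 3′ probe set of GAPDH exceeded its 5′ probe set by 1.12 and 0.89 on the Dox− arrays and by 1.77 and 0.96 on the Dox+ arrays at 12 h, against 0.37 to 0.52 on the 48 h arrays, and the groups of 12 h overlap. The same measure for ACTB was 1.6 and 1.5 on the Dox− arrays and 2.26 and 1.85 on the Dox+ arrays, and these groups do not overlap. The part of these RNA quality measures in the results below was not tested.

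Nearly all calls of the fit on the 4 arrays of 12 h were rises. The test (limma, two-sided, Benjamini-Hochberg adjusted p under 0.05) passed 128 genes that were higher in Dox+, 0.647% of the 19775 tested, and 4 that were lower, 0.0202%. The median difference over all genes was -0.04. Of the 128 rises, 17 were 4-fold or more, 106 lay between 2-fold and 4-fold, and 5 were under 2-fold, and their median was 1.35. At an unadjusted p under 0.05, limma gave 1414 genes higher and 1286 lower, which is nearly even. Falls also took a larger share of the calls in other fits: limma gave 1040 rises and 643 falls with all 14 arrays in 1 fit, 385 and 84 with the replicate number as a block, and 153 and 74 without Dox+ replicate 1. Both Dox+ arrays lay above both Dox− arrays for all 128 rises. Over all genes tested this held for 3808, or 19.3%, and the opposite order for 5452, or 27.6%. With the fold alone and no test, 166 genes rose 2-fold or more, 0.839%, and 26 fell, 0.131%.

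With 2 arrays a side, the calls rest on each array. Without Dox− replicate 1 the test passed 4 of the 128 genes (S100A2, TMEM40, HCAR3 and PRSS12), and without Dox− replicate 2 it passed 20. It passed 87 of them without Dox+ replicate 2 and 110 without Dox+ replicate 1. The sizes moved far less than the calls: between 114 and 116 of the 128 stayed at 2-fold or more whichever array was left out. All 128 kept their direction, which was fixed beforehand, since both Dox+ arrays lay above both Dox− arrays in each.

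**Figure D1:**
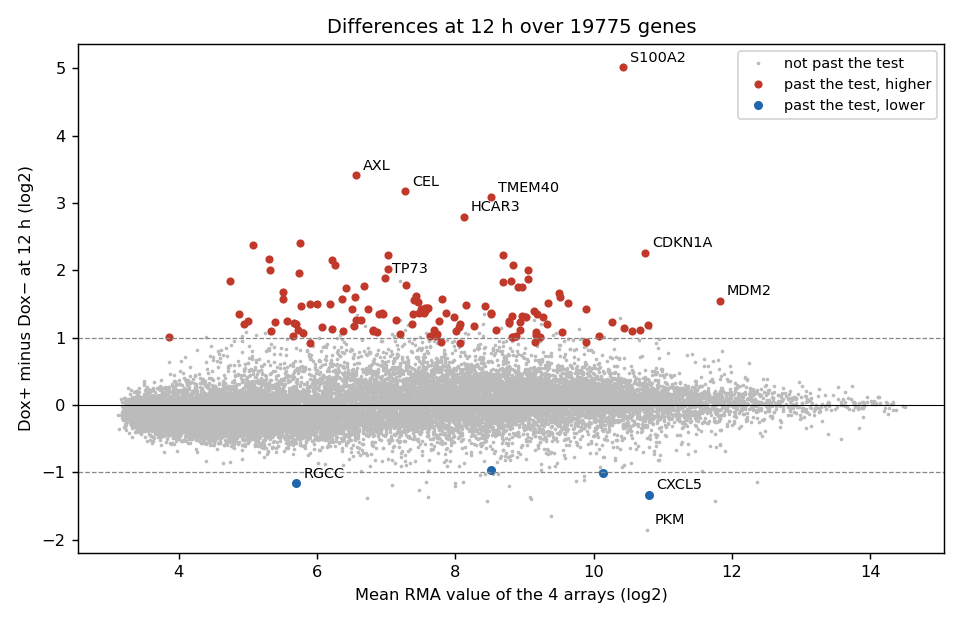
Difference between Dox+ and Dox− at 12 h (log2) against the mean RMA value of the 4 arrays (log2), 1 point per gene for 19775 genes. Red points are the 128 genes past the test and higher, blue points the 4 past the test and lower, and the dashed lines mark 2-fold. The red points reach up to 5.02, whereas PKM, the lowest point at -1.85, did not pass.

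The induced gene itself served as the check of the labels. TP73 read 5.99 and 6.08 on the Dox− arrays and 7.96 and 7.89 on the Dox+ arrays. The groups were well apart, with a gap many times the distance between replicates. This was a 3.7-fold rise (log2 1.89 ± 0.14 SE, n = 2 and 2, limma adjusted p = 0.00271). The other TP73 probe sets differed by 0.42 and 0.70 and did not pass. Whether a given probe set reads the introduced copy, the cell's own gene or both cannot be told apart here.

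The largest change in the whole comparison was in S100A2, a calcium-binding protein of stratified epithelia that responds to the p53 family. Its values were 7.55 and 8.28 on the Dox− arrays and 13.0 and 12.87 on the Dox+ arrays. The Dox+ arrays were nearly equal, and the distance between the Dox− arrays was a small part of the change. The rise was 32.4-fold (log2 5.02 ± 0.24 SE, adjusted p = 0.000615 by limma).

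AXL, the receptor tyrosine kinase for GAS6, came next in size. It read 4.29 and 5.43 on the Dox− arrays and 8.58 and 7.95 on the Dox+ arrays, a 10.6-fold rise (log2 3.41 ± 0.36 SE). Its replicates were the furthest apart of the 6 largest rises, and its limma adjusted p of 0.00994 became 0.0558 without Dox− replicate 1, where the log2 rise was 2.84. A second AXL probe set differed by 0.33. GAS6, the ligand, differed by -0.06 and did not pass.

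CEL, the bile salt-stimulated lipase, read 5.46 and 5.91 on the Dox− arrays and 9.21 and 8.51 on the Dox+ arrays. The change was 9.04-fold, and the second CEL probe set gave nearly the same size, 3.23 on the log2 scale against 3.18. TMEM40, a transmembrane protein, read 6.99 and 6.95 on the Dox− arrays and 9.96 and 10.16 on the Dox+ arrays. Its 8.51-fold rise had the same adjusted p as that of S100A2 (0.000615, limma), and its replicates differed by less than 0.2 in both groups.

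HCAR3, a G protein-coupled receptor for hydroxy fatty acids, read 7.03 and 6.42 on the Dox− arrays and 9.55 and 9.50 on the Dox+ arrays, a 6.95-fold rise. CDKN1A, which encodes the cell cycle inhibitor p21 and is the best known p53 target, read 9.65 and 9.58 on the Dox− arrays and 12.05 and 11.71 on the Dox+ arrays. It rose 4.8-fold (log2 2.26 ± 0.17 SE, limma adjusted p = 0.00271), eighth in order of size.

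The rest of the 25 largest rises covered several kinds of protein. Enzymes and proteins of the cell surface and matrix included the serine protease PRSS12 (neurotrypsin, 5.3-fold), the protease-like PRSS35 (5.21-fold), the hyaluronan synthase HAS3 (4.68-fold) and the adhesion protein NECTIN4 (4.24-fold). NRP2, a co-receptor for semaphorins and VEGF, rose 4.49-fold from 4.26 and 4.18 to 6.24 and 6.53. Metabolic and signalling enzymes included the inositol phosphate kinase IP6K3 (4.66-fold), the glycolytic phosphofructokinase PFKP (4.05-fold), GGT6 of the gamma-glutamyltransferase family (3.9-fold) and PGAP1, which remodels GPI anchors (3.43-fold). Genes of cell death and ubiquitin signalling were PIDD1, a platform for caspase-2 (4.22-fold), the pore-forming gasdermin GSDME (3.57-fold) and DTX4, a Deltex family ligase (3.56-fold). RIN2, which acts on Rab5 (4.47-fold), EML6, a microtubule protein (4.01-fold), NRTN, the neurotrophic factor neurturin (3.67-fold), and SP6, a transcription factor of epithelia (3.42-fold), complete the set with CSTA and RNASE7, described with the squamous genes.

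**Figure D2:**
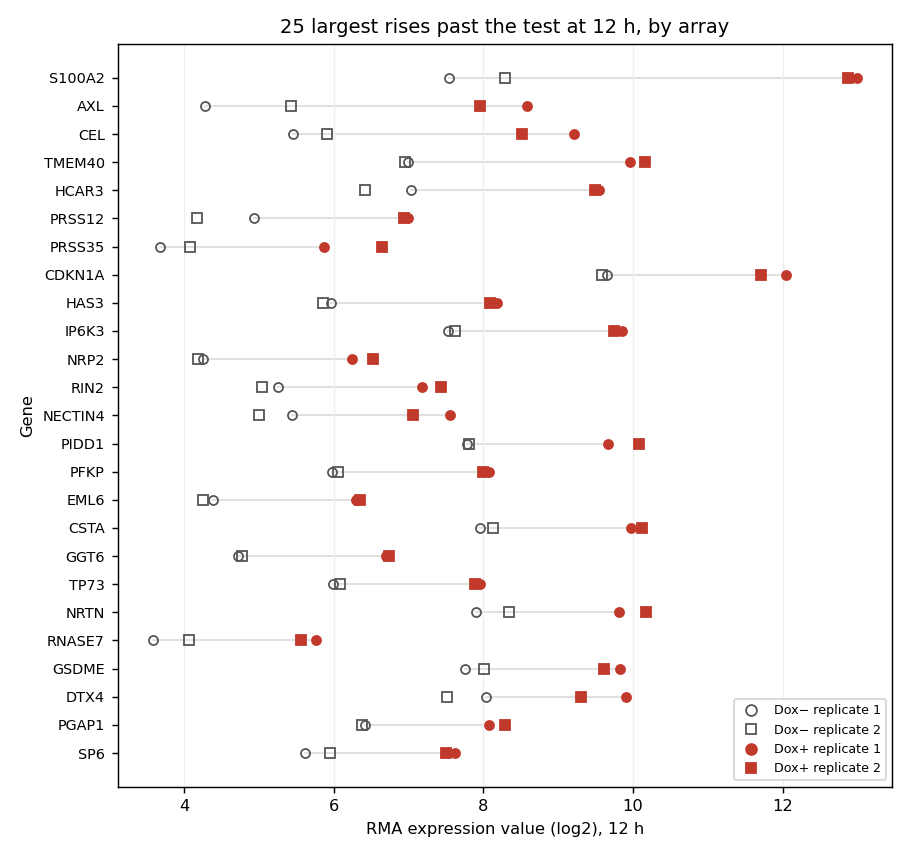
RMA value (log2) of each of the 4 arrays at 12 h for the 25 genes with the largest rises past the test. Open symbols are Dox− arrays, filled symbols Dox+ arrays, circles replicate 1 and squares replicate 2. For every gene both filled symbols lie to the right of both open ones, and for S100A2 the gap runs from 8.28 to 12.87.

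Genes of the p53 family, its regulators and known p53 targets were followed as 4 lists. Over all genes tested, 0.647% passed the test as rises. Of 13 p53 family members and regulators with a probe set, 3 rose: MDM2, PPP1R13L and TP73. The rise of TP73 was set by the design, since it is the gene that was introduced. MDM2 is the ubiquitin ligase that p53 induces against itself. It read 10.77 and 11.32 on the Dox− arrays and 12.40 and 12.79 on the Dox+ arrays, a 2.93-fold rise (limma adjusted p = 0.0321). Its further probe sets differed by between 0.17 and 4.2, all upward, so the size of the rise differed between probe sets. PPP1R13L (iASPP), an inhibitor of p53, read 8.16 and 8.47 against 9.74 and 9.52, a 2.49-fold rise.

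In the list of arrest and repair genes, 2 of 19 rose, CDKN1A and SESN1. SESN1, a sestrin of the stress response, read 8.49 and 8.24 on the Dox− arrays and 9.92 and 9.44 on the Dox+ arrays, a 2.49-fold rise (limma adjusted p = 0.0351). GADD45A, named after its values were seen, showed 10.03 and 9.44 against 11.18 and 10.87 and missed the threshold at an adjusted p of 0.0606 by limma. In 12 of the 19 genes, 63.2%, both Dox+ arrays lay above both Dox− arrays, against 19.3% of all genes. The list median was 0.37.

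In the list of cell death genes, 3 of 24 rose. PIDD1 read 7.78 and 7.81 on the Dox− arrays and 9.67 and 10.08 on the Dox+ arrays, and its second probe set gave 2.14 against 2.08 on the log2 scale. FAS, the death receptor, read 5.06 and 4.39 against 6.45 and 6.15, a 2.98-fold rise. TP53I3, a quinone oxidoreductase, read 9.65 and 9.49 against 10.69 and 10.50, a 2.03-fold rise. The arrays were apart and higher in 14 of the 24 (58.3%), against 19.3% of all genes, and the list median was 0.30. APAF1, the apoptosome scaffold, differed by 1.20 without passing (adjusted p = 0.101, limma). BAX read 8.66 and 9.18 on the Dox− arrays and 8.44 and 9.75 on the Dox+ arrays, so its groups overlapped and no direction can be given.

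Of 25 p53 targets in metabolism, trafficking and other roles, none passed. Both Dox+ arrays lay above both Dox− arrays in 14 (56%), against 19.3% of all genes, and the median was 0.25. EPHA2, an ephrin receptor, read 9.47 and 9.44 against 10.49 and 10.16 (adjusted p = 0.0805, limma). THBS1, the matrix protein thrombospondin 1, read 10.53 and 10.65 against 9.16 and 10.07, the lowest difference of the list at -0.97 (adjusted p = 0.221). The medians of the 4 lists stood between 0.25 and 0.37 beside -0.04 over all genes, and stayed between 0.14 and 0.44 whichever array was left out.

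The promoters of the genes that rose were searched for the p53 consensus site, because the genes share a response and the family is known to bind this element. The site has 2 half-sites of 10 bases set side by side, each with CNNG at its centre, and reads as the same pattern on both strands. The central letters had to be intact and up to 3 of the other bases could deviate. RefSeq windows (GRCh38.p14) of 250 bases before to 50 after a gene start were listed for 99 of the 128 genes, in 153 windows, since a gene can have several starts. A match stood in 13 of these windows (8.5%), in 12 genes that include the introduced TP73. Over all genes tested it stood in 247 of the 21490 windows (1.15%). With up to 2 deviating bases the shares were 6.54% and 0.265%, and with up to 4 they were 13.7% and 4.33%. None of the 6 windows of the 4 genes that fell held a match. At the 1.15% of all windows a match in so few was unlikely, so no contrast with the rises is drawn. A match is a description of these letters and was not measured as a bound site.

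The 12 genes were FAS, MDM2, SESN1, TP73, RNASE7, BLNK, ANKRD65, PANK1, PPP4R4, HSPA4L, ITGA2B and ADGRG1. Shown here are 5 of them, the 3 classical p53 targets together with TP73 itself and RNASE7 of the squamous genes, with the matching bases in capitals:
MDM2, chr12:68808893-68808972, plus strand: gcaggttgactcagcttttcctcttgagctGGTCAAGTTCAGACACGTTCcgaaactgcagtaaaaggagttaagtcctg
FAS, chr10:88991279-88991358, plus strand: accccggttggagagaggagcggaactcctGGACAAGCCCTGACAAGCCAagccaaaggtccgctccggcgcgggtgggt
SESN1, chr6:109008989-109009067, minus strand: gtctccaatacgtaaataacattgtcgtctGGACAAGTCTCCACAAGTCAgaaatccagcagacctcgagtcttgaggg
TP73, chr1:3690566-3690645, plus strand: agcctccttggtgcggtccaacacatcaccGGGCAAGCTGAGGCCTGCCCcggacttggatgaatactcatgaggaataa
RNASE7, chr14:21042156-21042235, plus strand: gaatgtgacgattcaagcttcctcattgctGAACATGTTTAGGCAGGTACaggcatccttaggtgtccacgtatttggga
SESN1 deviates from the consensus at 3 bases and the other 4 at 2 bases each. Measured to the first base of the match, the element starts 122 bases before the gene start in FAS, 176 in RNASE7, 49 in SESN1 and 76 in TP73, where the start is 1 of those RefSeq lists. TP73 is the introduced gene, so its rise does not show that this start of the cell's own gene was used. The MDM2 match lies 94 or 101 bases before 2 neighbouring starts.

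Squamous epithelial genes held some of the largest rises at 12 h, with no call in the rest of their list. Of 33 measured genes of squamous epithelium and the cornified envelope, 6 rose and none fell: S100A2, TMEM40, CSTA, RNASE7, TRIM29 and GRHL1. Over all genes 0.647% rose and 0.0202% fell. CSTA (cystatin A), a protease inhibitor of the cornified envelope, read 7.95 and 8.13 on the Dox− arrays and 9.97 and 10.12 on the Dox+ arrays, a 4.01-fold rise. RNASE7, an antimicrobial ribonuclease of skin, read 3.58 and 4.07 against 5.76 and 5.57, a 3.58-fold rise. Replicates of both genes lay close together beside these changes.

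TRIM29, an epithelial tripartite motif protein, read 6.74 and 7.0 on the Dox− arrays and 8.58 and 7.96 on the Dox+ arrays. GRHL1, a grainyhead transcription factor of epithelia, read 8.73 and 8.50 against 9.96 and 9.89. The median of the list was -0.08, near that of all genes. Both Dox+ arrays lay below both Dox− arrays in 11 of the 33, 33.3%, and above in 9, 27.3%. Over all genes these shares were 27.6% and 19.3%. The keratins and desmosomal proteins that define keratinocytes did not pass: none of 6 measured did, and their mean log2 value was 4.68 and 4.68 on the Dox− arrays and 4.78 and 4.67 on the Dox+ arrays. KRT15 had the largest difference of these, 5.11 and 5.02 against 5.80 and 5.62 (adjusted p = 0.144, limma).

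**Figure D3:**
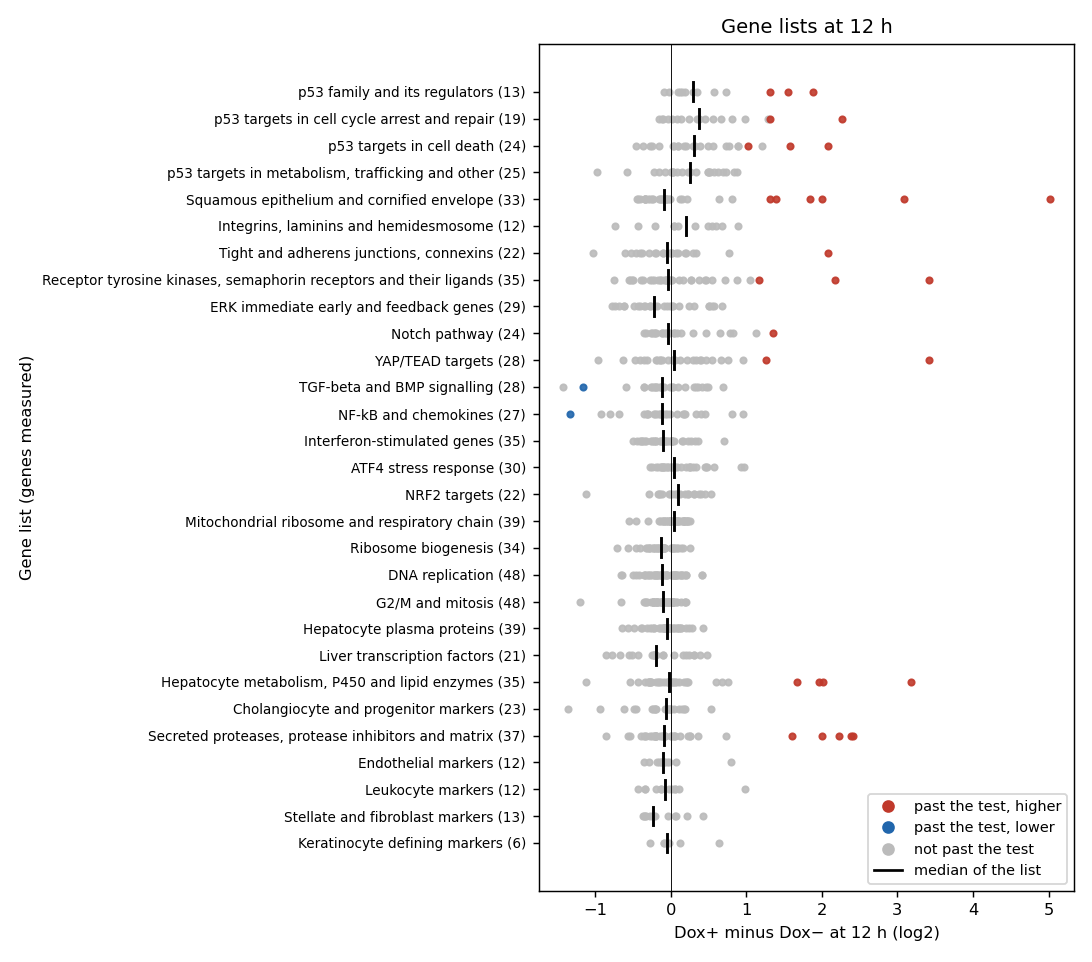
Difference between Dox+ and Dox− at 12 h (log2) for the members of 29 gene lists, 1 point per gene, with the number of genes measured in brackets and a black bar at the median of each list. Red points passed the test upward and blue points downward. The 4 lists of the p53 family have their medians to the right of 0, between 0.25 and 0.37, and the squamous list holds the point furthest to the right, S100A2 at 5.02.

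Receptors and signalling pathways contributed single members, where 0.647% of all genes rose. Of 35 receptor tyrosine kinases, semaphorin receptors and ligands, 3 rose: AXL, NRP2 and FGFR2, a fibroblast growth factor receptor that read 7.67 and 7.28 on the Dox− arrays and 8.69 and 8.58 on the Dox+ arrays. The list had a median of -0.03. NOTCH1 was the only 1 of 24 Notch pathway genes past the test. It read 7.84 on both Dox− arrays and 9.19 on both Dox+ arrays, a 2.56-fold rise with hardly any spread (adjusted p = 0.00994, limma). The other NOTCH1 probe set differed by -0.12.

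The Notch ligand JAG1 read 10.37 and 10.30 against 10.77 and 10.84 and did not pass (adjusted p = 0.253). JAG2, named after its values were seen, differed by 1.13 (adjusted p = 0.057, limma). Of 28 targets of YAP and TEAD, 2 rose, AXL and AMOTL1, a motin that binds YAP and read 8.10 and 8.19 against 9.26 and 9.54. YAP1 and WWTR1, the coactivators themselves, differed by 0.12 and -0.32 and did not pass.

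Matrix, metabolic and junction genes gave the remaining counts, where 0.647% of all genes rose. Of 37 secreted proteases, inhibitors and matrix genes, 5 rose: PRSS12, PRSS35, HAS3, CSTA and FBN1, the microfibril protein fibrillin 1, which read 5.51 and 5.97 on the Dox− arrays and 7.21 and 7.49 on the Dox+ arrays. Of 35 genes of hepatocyte metabolism, cytochromes P450 and lipid enzymes, 4 rose: CEL, PFKP, GGT6 and CROT, a peroxisomal carnitine acyltransferase that read 8.77 and 8.56 against 10.16 and 10.50. CYP3A4, a drug-metabolising cytochrome, read 6.19 and 6.39 against 6.14 and 6.37, with overlapping groups. NECTIN4 was the only 1 of 22 junction genes to pass, from 5.44 and 5.01 to 7.56 and 7.05. TJP1 and EPCAM differed by 0.09 and -0.04, with overlapping arrays.

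Plasma protein and liver transcription factor genes showed no call at 12 h. None of 39 plasma protein genes passed, with a median of -0.05. ALB (albumin) read 14.44 and 14.39 on the Dox− arrays and 14.37 and 14.32 on the Dox+ arrays, and AFP (α-fetoprotein) read 9.60 and 9.30 against 9.68 and 9.71, so both groups expressed the liver markers of the line. The ALB probe sets did not share a direction. Other ALB probe sets differed by -0.247 and 0.17, and another read 5.93 and 6.93 against 8.86 and 7.22. None of these passed with every probe set tested on its own (limma). None of 21 liver transcription factors passed. The lowest of them, NR0B2 (SHP), read 8.88 and 9.17 against 8.17 and 8.17 (adjusted p = 0.0779, limma).

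Among 23 cholangiocyte and progenitor markers none passed. LGR5, a stem cell receptor of the WNT pathway, read 9.03 and 8.91 on the Dox− arrays and 8.15 and 7.92 on the Dox+ arrays, a log2 difference of -0.93 (adjusted p = 0.0534). Markers of endothelial cells (12 genes), leukocytes (12) and stellate cells or fibroblasts (13) gave no call either, with medians of -0.10, -0.08 and -0.24, and their mean log2 values lay within 4.93 to 5.06, 5.52 to 5.64 and 5.68 to 5.86 over the 4 arrays.

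Genes of proliferation had not changed past the test at 12 h. Of 48 G2/M and mitosis genes, 48 DNA replication genes and 34 ribosome biogenesis genes, none was called, with medians of -0.11, -0.11 and -0.13. Both Dox+ arrays lay below both Dox− arrays in 31.25%, 31.25% and 44.1% of them, against 27.6% of all genes. The opposite order held in 4.17%, 6.25% and 0%, against 19.3% of all genes. At 24 h the medians of these lists were -0.60, -0.24 and -0.36, and at 48 h -0.61, -0.25 and -0.39, with 46, 26 and 33 genes called lower there, where 12.9% of all genes were. The difference of a list's median between times was not tested. MYC, the growth-promoting transcription factor, read 11.61 and 11.04 on the Dox− arrays and 10.71 and 10.46 on the Dox+ arrays at 12 h (adjusted p = 0.227, limma).

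Stress and signalling lists without a call were integrins and laminins (12 genes), ERK early genes (29), interferon-stimulated genes (35), ATF4 targets (30), NRF2 targets (22) and mitochondrial genes (39), with medians between -0.22 for the ERK list and 0.21 for the integrin list. EGR1, an immediate early factor, read 10.82 and 10.60 against 9.87 and 9.98 (adjusted p = 0.0907, limma). LAMB3, a laminin chain, read 6.96 and 6.47 against 7.49 and 7.73 (adjusted p = 0.126). DDIT4 and NUPR1 of the ATF4 list differed by 0.97 and 0.92 and did not pass (adjusted p = 0.14 and 0.057).

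The 4 genes that fell past the test were CXCL5, RGCC, PPDPF and ADISSP. CXCL5, a chemokine that attracts neutrophils, read 11.58 and 11.35 on the Dox− arrays and 10.09 and 10.18 on the Dox+ arrays. It fell by 1.33 ± 0.16 SE on the log2 scale (limma adjusted p = 0.0158), and was 1 of 27 NF-κB and chemokine genes. Another CXCL5 probe set differed by -2.16. RGCC, a regulator of the cell cycle and a TGF-β response gene, read 6.43 and 6.13 against 5.09 and 5.16, and was 1 of 28 TGF-β and BMP genes. PPDPF read 10.51 and 10.77 against 9.58 and 9.68, and ADISSP 8.92 and 9.08 against 8.02 and 8.06. In all 4 the Dox+ arrays were close together, within 0.1.

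Falls of 2-fold that did not pass looked different array by array. Of the 26 genes at 2-fold or more below Dox−, 3 passed the test, whereas 123 of the 166 rises of that size did. In 21 of the 26, Dox+ replicate 2 lay more than 0.5 below Dox+ replicate 1, and in 1 the order was opposite. Among the 166 rises the Dox+ arrays were more than 0.5 apart in 15, and among all genes in 1208 of 19775. PKM, a pyruvate kinase of glycolysis, read 11.85 and 11.55 on the Dox− arrays and 11.12 and 8.57 on the Dox+ arrays. TRAPPC1, of a vesicle tethering complex, read 10.24 and 10.18 against 9.62 and 7.5. In both, 1 array carried most of the fall.

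TGFB1, the ligand TGF-β1, read 9.10 and 9.23 on the Dox− arrays and 8.16 and 7.32 on the Dox+ arrays (adjusted p = 0.0716, limma). BANF1, a chromatin-binding protein, read 12.45 and 12.48 against 11.64 and 10.43. PLK1, a mitotic kinase, read 9.52 and 9.23 against 8.54 and 7.82 (adjusted p = 0.097). All 3 had both Dox+ arrays below both Dox− arrays, with replicate 2 the lower. The others of the 10 largest falls with arrays apart, CXCL5 aside, were CDC42EP1, CNOT3, SLC4A2, PTMS and FKBP8, with differences from -1.40 to -1.20 and the same order of arrays.

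Without Dox+ replicate 2, 7 of the 26 falls still reached 2-fold. The 26 were chosen on means that include this array. Over all genes, 46 lay 2-fold or more lower without Dox+ replicate 2 and 103 without Dox+ replicate 1. On the arrays of 48 h, 17 of the 26 had a difference between -0.25 and 0.25. The Dox− means of these genes were also lower at 48 h than at 12 h, so the 2 differences start from unlike levels. For PKM the Dox− mean was 11.7 at 12 h and 9.45 at 48 h, and for TRAPPC1 10.21 and 8.11. The cause of this shift in untreated cells was not tested. Of the 26, 8 were called lower at 48 h and 1, EPHX1, was called higher, beside 12.9% of all genes called lower and 11.3% called higher. The 3′ over 5′ measure of RNA quality was 1.77 for GAPDH and 2.26 for ACTB on Dox+ replicate 1. On Dox+ replicate 2 it was 0.96 and 1.85. The part of RNA quality in these falls was not tested.

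**Figure D4:**
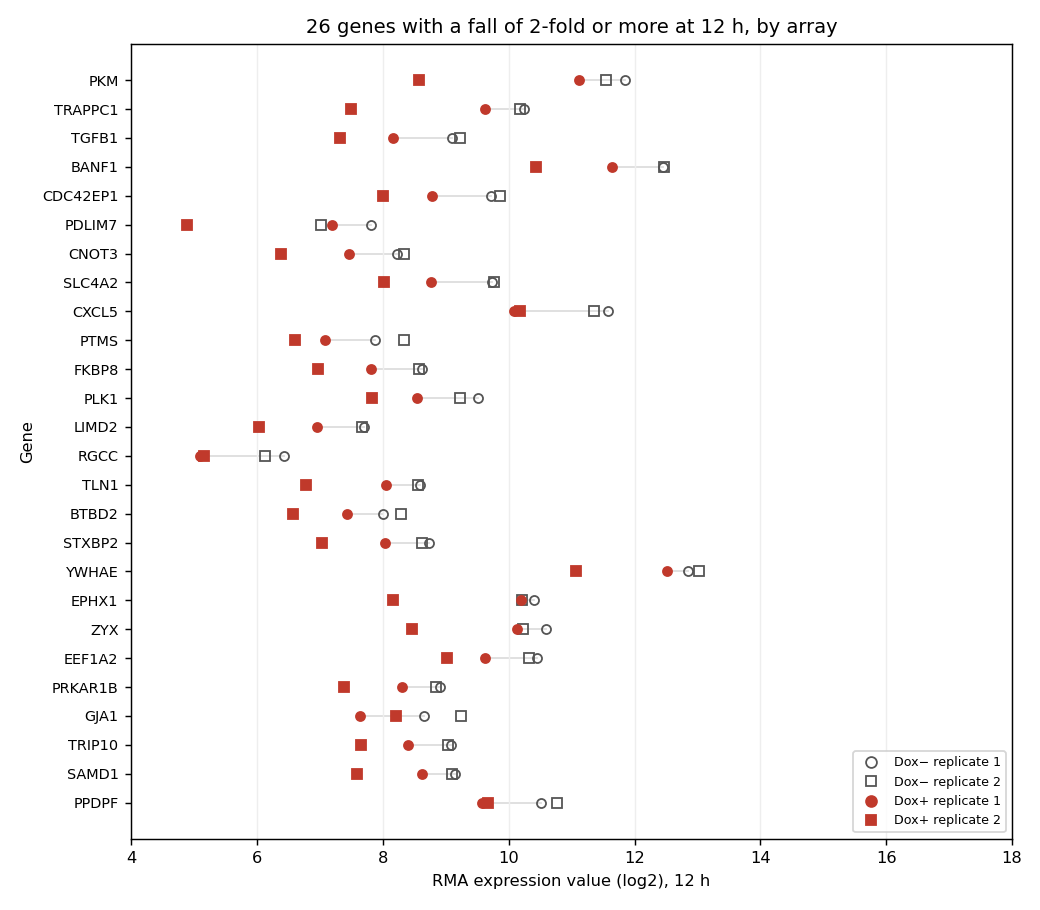
RMA value (log2) of each of the 4 arrays at 12 h for the 26 genes whose mean fell 2-fold or more, in order of size, with symbols as in the plot of the 25 rises. In most rows the filled square, Dox+ replicate 2, stands alone on the left, 2.55 below replicate 1 for PKM, whereas for CXCL5, RGCC and PPDPF the filled symbols sit together.

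The rises of 12 h were followed to the later times. Of the 128 genes, 111 were also called higher at 24 h, where 3.01% of all genes were, and 125 at 48 h, where 11.3% were, and none was called lower at either time. Each time point had its own untreated arrays, so these comparisons share no control array. From a median of 1.35 at the first time, the rise of the 128 went to 1.38 at 24 h and to 1.65 at 48 h. The genes not called at 48 h were NAP1L3, SCAI and VAMP1. Among the 17 not called at 24 h were FGFR2, with differences of 1.16, 0.64 and 0.36 at the 3 times, and PCSK6, a proprotein convertase. For FGFR2 no difference between times passed both fits. Of the 4 falls, 2 were called lower at 24 h, where 2.81% of all genes were, and 3 at 48 h, and PPDPF differed by 0.33 and 0.11 there.

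Some early differences grew further. A gene's difference between times was taken as shown only where it passed the interaction test of limma in both the plain fit and the fit with array weights per time point. Against 48 h, 121 of all genes (0.612%) had a lower value of the difference at 12 h and 87 (0.44%) a higher one. Of the 128 rises, 17 were smaller at 12 h than at 48 h and 2 were larger. CSTA rose by 2.0, then by 3.96 and by 4.98 at the later times, so that 12 h lay 2.98 ± 0.17 SE below 48 h (adjusted p = 4.40e-07). RNASE7 rose by 1.84, 2.04 and 5.15, the largest later gain, 3.31 ± 0.28 SE. UCA1, a long non-coding RNA of bladder carcinoma, rose by 1.36, 2.61 and 4.54. Between 12 h and 48 h its Dox− mean fell from 6.80 to 5.73 and its Dox+ mean rose from 8.16 to 10.27. For CSTA, RNASE7 and UCA1 most of the 48 h difference, on the log2 scale, was not present at 12 h.

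NRP2 rose by 2.17, 2.88 and 4.01, PRSS12 by 2.41, 2.67 and 4.22, and HAS3 by 2.23, 2.40 and 3.55, and all 3 passed the interaction against 48 h. For HAS3 the Dox− mean fell from 5.91 at 12 h to 4.95 at 48 h, while the Dox+ mean went from 8.14 to 8.51. FAS (1.57, then 2.74 at 48 h), TP53I3 (1.02, then 1.89) and RNF144B (1.76, then 2.83), a ubiquitin ligase, passed this interaction among the p53 targets and related genes. For CDKN1A, with 2.26, 2.37 and 2.77, MDM2, with 1.55, 1.79 and 1.75, and S100A2, with 5.02, 5.98 and 5.53, no difference between 12 h and 48 h passed in both fits.

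The 2 rises that were larger at 12 h than at 48 h were SCAI, a suppressor of invasion, at 1.07, 0.34 and -0.11, and PCSK6, at 1.5, -0.25 and 0.44. PCSK6 passed the weighted fit only narrowly (adjusted p = 0.0499). SCAI read 5.10 and 5.42 on the Dox− arrays and 6.37 and 6.28 on the Dox+ arrays of 12 h. Between 12 h and 48 h the Dox− mean of SCAI went from 5.26 to 6.25 and its Dox+ mean from 6.33 to 6.14. Its smaller difference at 48 h thus lay mostly in the untreated cells. For PCSK6 the Dox− mean went from 5.44 to 5.83 and the Dox+ mean from 6.94 to 6.27. Against 24 h, 3 genes were smaller at 12 h in both fits (0.0152%), CSTA, GGT6 and LCN15, and 0 were larger, where the plain fit alone gave 106 and the weighted fit 0.

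**Figure D5:**
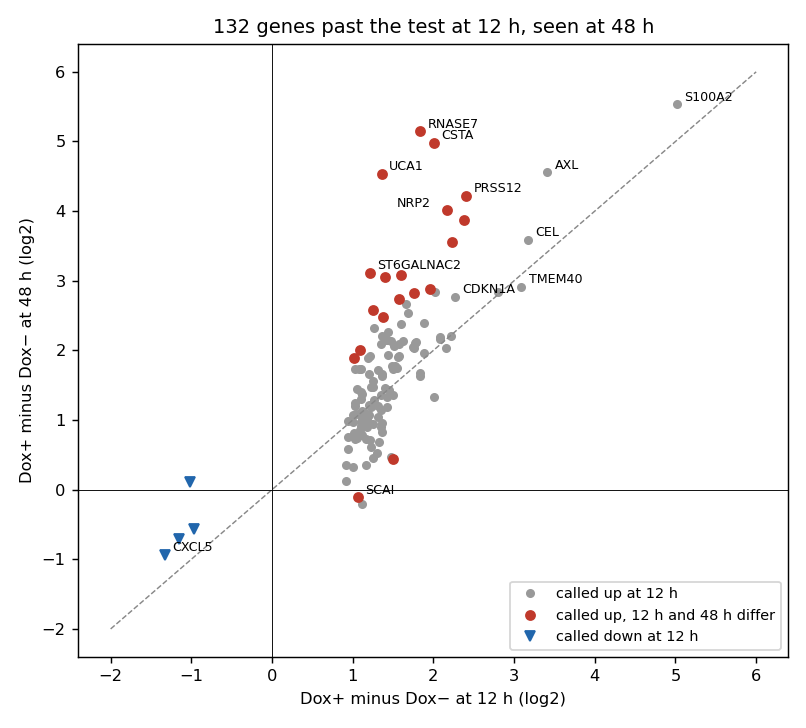
Difference between Dox+ and Dox− at 48 h (log2) against that at 12 h (log2) for the 132 genes past the test at 12 h. Red circles are the 19 rises whose difference between the times passed both fits, grey circles the other rises, blue triangles the 4 falls, and the dashed line marks equal differences. RNASE7, CSTA and UCA1 stand furthest above the line, and SCAI, at 1.07 and -0.11, lies below it.

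Genes with several probe sets give a further view of the 12 h rises. Of the 128 genes, 82 had other probe sets. In 25 of these at least 1 other probe set was 2-fold or more higher, and in 14 no other probe set was above 0. NRP2 has 10 other probe sets, the highest of which differed by 0.46, and those of PFKP and EML6 differed by -0.01 and -0.39. PGAP1 had 3 further probe sets at 1.47, 1.79 and 1.77, close to its own 1.78, and another at 0.57. Which transcripts each probe set reads was not tested.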

How the data were processed

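Expression was measured on 14 Affymetrix U133 Plus 2.0 arrays, of which the 4 labelled 12 h (Dox− and Dox+, 2 each, grouped by the treatment and time labels) are described here. The deposited values are log2 values that the authors made by RMA, and the submitters' processing notes name R 3.5.1. RMA normalizes all arrays together and evens out brightness, so a shift shared by most genes would not show. Of 54675 probe sets, 41091 had a single gene in the platform annotation, 1801 had several genes and 11721 no listed gene, and 62 were hybridisation controls. Each of 19775 genes was read from its brightest probe set, judged by the mean of the 14 arrays, and 41037 of the single-gene probe sets were matched through Entrez identifiers. List members with no listed probe set were not analysed here. Growth medium is DMEM in the labels and RPMI in the methods.

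Dox+ and Dox− of 12 h were compared by two-sided tests in limma (version 3.58.1, R 4.3.3; lmFit, then eBayes), with Benjamini-Hochberg adjustment over all genes and a threshold of 0.05, first tested on simulated data. Differences between times were interaction contrasts over all 14 arrays, required in both the plain fit and that with array weights per time point. Tables were handled with pandas 2.3.3, numpy 2.4.6 and data.table (version 1.17.8) and drawn with matplotlib 3.10.9. A rule chose the named genes: TP73, the 25 largest rises and 15 largest falls past the test with arrays that do not overlap, the 10 largest falls whether past it or not, up to 4 members called of each of 29 lists (2 by value where none was called), genes the study discusses for these cells, and the 6 largest interactions each way. The members, the rule and the lists were chosen with earlier results of these data known, and the promoter search was chosen after the 12 h results were seen. The number of arrays limits the precision. Alternatives were a joint fit of the 14 arrays, a filter on dim genes, other choices of probe set, quantile normalization, trend and robust moderation, a replicate block, array weights, the methods' t-test, other folds and each array left out.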

Additional observations from a re-analysis of the deposited data

Results flagged for a closer look

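Genes whose difference at 12 h was not that at a later time, by the interaction test in both fits, are given here as the 12 h value minus the later one on the log2 scale. Against 24 h these were CSTA (-1.96), GGT6 (-1.56) and LCN15 (-1.87), a lipocalin that read 6.8 and 6.44 on the Dox− arrays and 7.10 and 6.91 on the Dox+ arrays at 12 h. Against 48 h the rises that had not reached their later size were RNASE7 (-3.31), UCA1 (-3.18), CSTA (-2.98), CYP4F3 (-3.18), a fatty acid hydroxylase, WFDC21P (-2.44) and ABCA12 (-2.38), a lipid transporter of the epidermis. ABCA12 differed by 0.01 at 12 h and 2.39 at 48 h, and CYP4F3 by 0.76 and 3.95.

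Genes whose difference at 48 h lay below that at 12 h were SPINK1 (2.7), a trypsin inhibitor, TM4SF4 (1.86), GJA1 (1.80), which encodes connexin 43, RFX6 (1.78), ATP2B2 (1.68), a calcium pump, and VSIG1 (1.63). SPINK1 differed by -0.21 at 12 h and -2.91 at 48 h. ATP2B2 differed by 0.82 at 12 h and -0.86 at 48 h. Between these times its Dox− mean went from 7.59 to 8.96 and its Dox+ mean from 8.41 to 8.10. The change in the ATP2B2 difference thus lay mostly in the untreated cells. Each of these genes passed its interaction test in all 9 settings run, those without 1 of the 12 h arrays included.

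Probe sets with no listed gene or with several genes were tested apart from the genes. Of 13522, limma passed 13 higher and 1 lower at 12 h, and the largest rise was 3.5.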

How the results depend on the processing

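The 128 rises and 4 falls became 1040 and 643 with all 14 arrays in 1 fit, 65 and 6 with every probe set on its own, 83 and 4 with each gene's most variable probe set, and 0 and 0 with the methods' t-test after adjustment. Falls numbered 8 with quantile normalization and 9 with trend and robust options. With 1 array left out, rises ranged from 4 to 153 and falls from 0 to 74, where a lone array was assumed to vary like the others. Same-numbered arrays of 12 h deviated together with a correlation of 0.255, over only 2 pairs that the labels do not tie, and the fit with the replicate block gave 385 rises and 84 falls, all 128 and 4 among them. Genes 2-fold up with no test (166) numbered 286 over every probe set, 622 at 1.5-fold, 34 at 3-fold and 173 to 221 with 1 array left out. Those 2-fold down (26) numbered 86, 264, 2 and 42 to 103, and 63 with the most variable probe set. Differences above those at 48 h (324) numbered 87 with array weights and 162 to 857 with 1 array left out, and those below (309) 121 and 242 to 506. Differences above those at 24 h (106) numbered 0 with weights, 28 with quantile normalization, 3 with the replicate block, 341 with trend and robust options and 6 to 1645 with 1 array left out, and those below (102) 3, 59, 4, 189 and 27 to 852. The cause of these changes was not tested.

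Over the named genes, the called ones kept their call in 382 of 496 alternatives and lost it in 114, and none reversed. In uncalled genes 80 alternatives passed the test, 713 did not, and 15 turned the sign of a small value. The latter were DCN (0.0092 without _x_at probe sets), CFTR (0.029, quantile normalization) and ALB (0.17, most variable probe set), and genes in which 1 array decided the sign. In the called genes the groups did not overlap, so leaving out 1 array could not turn the sign. With each array left out in turn, log2 differences ran from -0.47 to 0.83 for BAX, from -0.0031 to 0.18 for TJP1, from -0.19 to 0.12 for EPCAM, from -0.11 to 0.32 for KRT19, from -0.15 to 0.084 for CYP3A4, from -0.078 to 0.62 for WFDC21P, from -0.064 to 0.090 for ABCA12, from -0.43 to 0.0062 for SPINK1 and from -0.31 to 0.095 for RFX6.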

Other observations

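Several genes that rose past the test lie outside the lists, and those named here were chosen after their values were seen. The semaphorin receptors PLXNA1 and PLXNC1 both rose: PLXNA1 read 8.61 and 9.12 on the Dox− arrays and 10.18 and 10.60 on the Dox+ arrays, and PLXNC1 read 8.74 and 8.45 against 10.08 and 10.13. The highest of their other probe sets differed by 0.49 for PLXNA1 and by -0.03 for PLXNC1. Plexins and the neuropilin NRP2 are receptors for semaphorins. The water and glycerol channels AQP3 and AQP10 rose by 1.23 and 1.5 on the log2 scale (limma adjusted p = 0.0371 and 0.0197). AQP10 read 5.25 and 5.24 against 6.51 and 6.99.

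Proteins that act on Notch signalling from outside the pathway list also rose. MAML2, a Mastermind coactivator, read 5.65 and 6.01 on the Dox− arrays and 6.93 and 6.92 on the Dox+ arrays. Its other probe set differed by -0.14. NEURL1B, a ligase for Notch ligands, read 7.12 and 7.13 against 8.10 and 8.21. Epithelial transcription factors among the rises were SP6 and ZNF750, and ZNF750 read 3.38 and 3.35 against 4.28 and 4.46. MAML2 and NEURL1B were not called at 24 h and were called at 48 h.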
